A study of Homo sapiens with 4 samples.

Results

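The genes described here are those of sphingosine 1-phosphate (S1P), the signalling lipid whose pathway runs parallel to that of lysophosphatidic acid (LPA): the receptors S1PR1 to S1PR5, the sphingosine kinases SPHK1 and SPHK2, the lyase SGPL1 and the phosphatase SGPP1. They were taken by name, not by their values, as every probe set to which the array annotation gives exactly 1 of these symbols and no other. This rule found 15 of the 41097 probe sets with 1 gene symbol, for 8 of the 19775 genes so annotated. The annotation used here lists no probe set under SPHK2, so that gene was not analysed here.

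The cells were HEK293, an established line from human embryonic kidney that carries adenoviral transforming genes. LPA-treated cells received 1 µM LPA for 2 h after a night in medium without serum (2 arrays, replicates 1 and 2). Untreated cells, whose titles carry the unexplained letters Vc and whose treatment is given as none, also gave 2 arrays, replicates 1 and 2. What they received in place of LPA is not stated, and nothing says that the arrays came from separate cultures, so each p-value speaks for the variation among the arrays, possibly a technical one. Transcript signal was read on Affymetrix expression arrays, on which several short probes (a probe set) report 1 stretch of a transcript.

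S1P and LPA are both lysophospholipids carried in serum, and each acts from outside the cell on its own family of G protein-coupled receptors. Sphingosine kinases make S1P from sphingosine, SGPL1 in the endoplasmic reticulum cleaves it irreversibly, and SGPP1 returns it to sphingosine, from which ceramide can be rebuilt. S1P is best known for guiding lymphocyte traffic and keeping blood vessels tight, while HEK293 cells have long served as a host in which S1P receptors are expressed from plasmids.

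Array medians were 70.7 and 72.3 after LPA and 70.3 and 76.1 without it, and LPA replicate 2 had the lowest maximum, 62508, against 93776 to 104012 on the other arrays. No detection calls were used, so dim signals were judged in 2 ways. The 40th percentile of all probe sets with 1 symbol lay at a mean signal of 47.1, a mean of log2(signal + 1) converted back. Means set against this percentile or against tissue-restricted probe sets are all of this kind. A list of 36 genes restricted to other tissues (59 probe sets, insulin and casein among the genes) had medians of 16.7 and 11.9 on the LPA arrays and 12.5 and 26.0 on the untreated arrays, with 90th percentiles of 80.5 and 86.8 against 85.4 and 111. The HEK293 markers vimentin (VIM), the neurofilament NEFM and the keratin KRT18 were bright on every array, and 7 of 8 such markers had a brightest probe set above the 40th percentile. Of the endothelial markers 1 of 5 lay above it, with summed signals of 142 and 68.4 after LPA and 221 and 239 without it. Of the blood cell markers 1 of 4 lay above it, with summed signals of 287 and 401 after LPA and 333 and 307 without it. Most of each sum came from CD79A, which read 240 and 367 after LPA and 293 and 183 without it. CD79A and CD3E were in both the blood cell list and the tissue-restricted list.

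**Figure D1:**
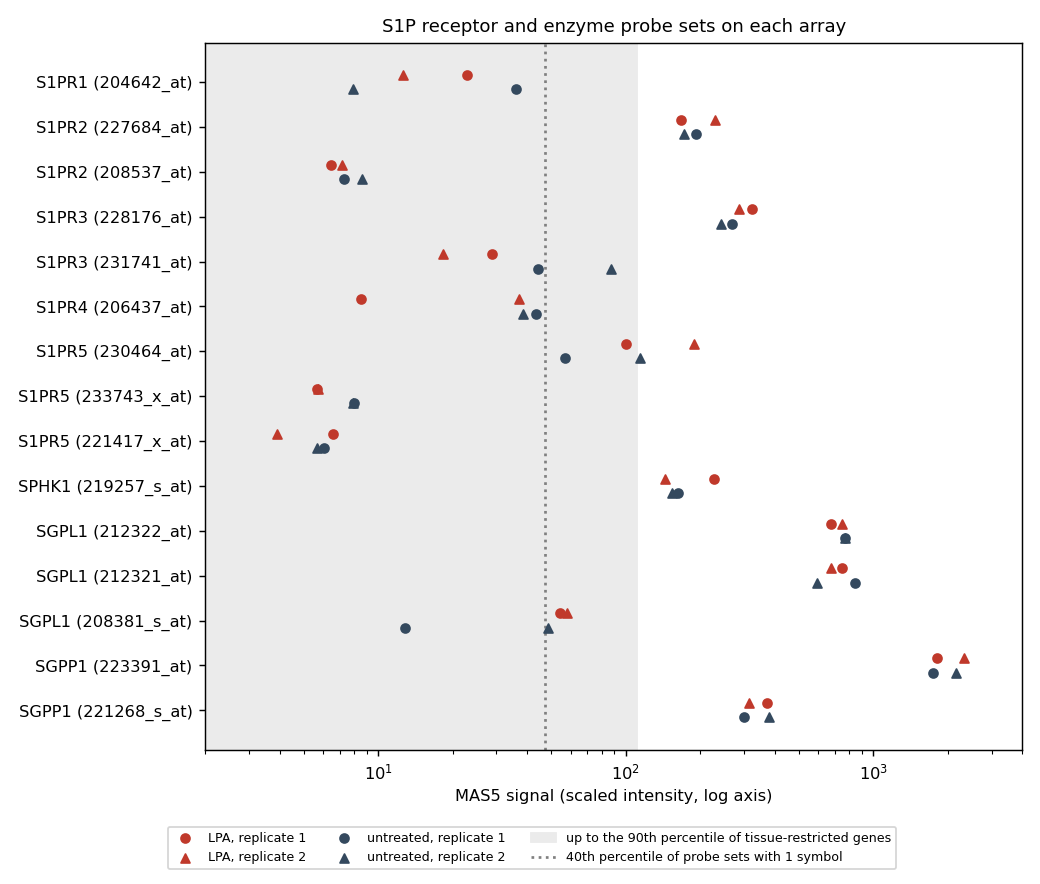
Signal of each S1P receptor and enzyme probe set (rows) on each array, on a log axis; circles are replicate 1, triangles replicate 2, red LPA and dark untreated. Grey shading runs up to 111, the highest 90th percentile of tissue-restricted genes on any array, and the dotted line marks 47.1. Receptor probe sets lie mostly in the shaded range, while SGPP1 and the brighter pair of SGPL1 probe sets lie well to its right, with red and dark points close together in each row.

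After 2 h of LPA, no gene of the S1P pathway passed the test. SGPP1 and SGPL1, the enzymes that remove S1P, had the narrowest intervals, and at their brighter probe sets the groups differed by no more than 0.11 on the log2 scale in either direction. The receptors with a probe set above the 40th percentile were S1PR2, S1PR3 and S1PR5, whereas S1PR1 and S1PR4 were dim on all 4 arrays. The differences over 1 log2 unit, in either direction, all belonged to probe sets below that percentile. In limma's test of log2(signal + 1), fitted over all probe sets with 1 symbol and adjusted by Benjamini-Hochberg, 0 of 15 probe sets passed an adjusted p of 0.05 (background 0% of 41097), and each had an adjusted p of 0.9998. An unadjusted p under 0.05 was found for 0 of the 15, against 3.35% (1378) of all probe sets. The LPA arrays were both brighter than either untreated array for 2 of the 15 (background 15.0%) and both dimmer for 5 (background 15.8%), and 4 of these 5 were among the 7 probe sets whose mean lay below the 40th percentile. Dim probe sets separate downward more often in these data, at 19.4% of those below that percentile and 13.5% of those above it. The median log2 difference was 0.0042 over the 15 and -0.0048 over all probe sets. With 2 arrays against 2, an exact permutation test of any single value cannot go below a two-sided p of 0.333. In RNA pooled over a culture, fewer expressing cells and less RNA per cell cannot be told apart.

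**Figure D2:**
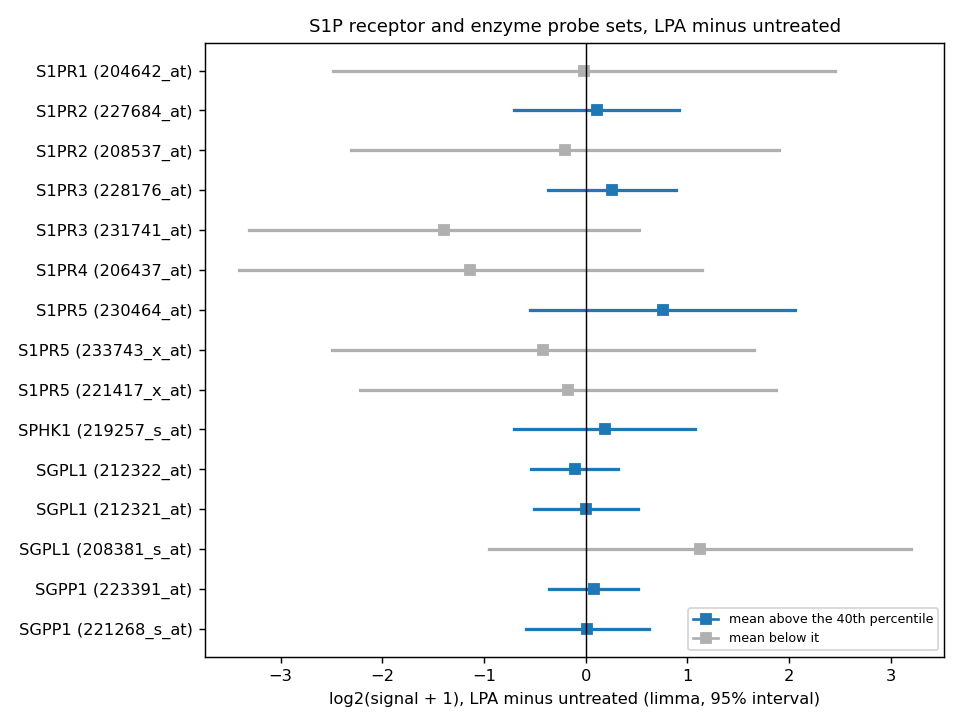
Log2 difference, LPA minus untreated, of each S1P probe set (squares) with limma's 95% interval (lines); blue marks a mean signal above the 40th percentile and grey below it. Every interval crosses 0; the narrowest are those of SGPL1 and SGPP1, and grey intervals span several log2 units.

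S1PR1, the receptor through which lymphocytes leave lymphoid organs and the main S1P receptor of endothelium, has 1 probe set, 204642_at. It read 22.9 and 12.5 after LPA, against 36.1 and 7.92 in untreated cells. The untreated arrays lay on either side of the LPA arrays, and 28 of the 59 tissue-restricted probe sets had a mean at or above this one. The log2 difference was -0.02 ± 1.08 (SE, 2 arrays per group), with an interval from -2.48 to 2.45, and turned to 0.08 under quantile normalization, so no difference was detectable at this brightness.

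S1PR2 couples to G12 and G13 among other G proteins. Its brighter probe set, 227684_at, read 167 and 230 after LPA and 192 and 172 in untreated cells. The groups overlapped, and the difference was 0.11 ± 0.36 on the log2 scale (interval -0.70 to 0.92). The dim one, 208537_at, read 6.43 and 7.12 after LPA and 7.29 and 8.61 in untreated cells. These groups did not overlap, but at a mean signal that 46 of the 59 tissue-restricted probe sets equalled or exceeded (difference -0.20 ± 0.92).

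S1PR3 couples to Gi, Gq and G12/13. The brighter probe set, 228176_at, was higher on both LPA arrays, at 324 and 288, against 268 and 242 in untreated cells. Its log2 difference was 0.26 ± 0.28 (interval -0.37 to 0.89; limma unadjusted p = 0.369, adjusted p = 0.9998). The other probe set of the gene, 231741_at, went the other way, with 28.8 and 18.3 after LPA and 44.1 and 87.0 in untreated cells. Neither probe set had overlapping groups, so the gene has no single direction in these data. The second difference was the largest of the 15 in size, -1.40 ± 0.84 (interval -3.31 to 0.52; limma unadjusted p = 0.133, adjusted p = 0.9998), and it shrank to -0.55 with a pseudocount of 64. Only 1 of its 4 values, untreated replicate 2, lay above 47.1. The mean of both probe sets gave -0.57.

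S1PR4, a receptor found mainly on blood cells, has 1 probe set, 206437_at. It read 8.53 and 37.0 after LPA and 43.2 and 38.3 in untreated cells. All 4 values lay below 47.1, and 3 of them were close together: LPA replicate 1 alone was low. The difference of -1.13 ± 1.00 became -0.14 without LPA replicate 1 and -2.13 without LPA replicate 2.

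S1PR5, known from natural killer cells and oligodendrocytes, has 3 probe sets, of which only 230464_at had a mean above the 40th percentile. It read 101 and 188 after LPA and 56.9 and 115 in untreated cells. On each replicate number the LPA array was the brighter, by 0.81 and 0.71 log2 units, yet the groups overlapped because replicate 2 was the brighter in each group. The difference was 0.76 ± 0.57 (interval -0.54 to 2.06; limma unadjusted p = 0.218, adjusted p = 0.9998), the largest among the probe sets above the 40th percentile, and it ranged from 0.26 without untreated replicate 1 to 1.26 without untreated replicate 2. The other probe sets, 233743_x_at and 221417_x_at, carry the suffix that Affymetrix gives to probes that may bind other transcripts. The first read 5.67 and 5.69 after LPA and 7.99 and 7.89 in untreated cells. The second read 6.57 and 3.90 after LPA and 6.07 and 5.66 in untreated cells. Both lay among the dimmest signals, with means at or below those of 49 and 55 of the 59 tissue-restricted probe sets, and the mean over the 3 probe sets differed by 0.06.

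SPHK1, the kinase that growth factors activate at the plasma membrane and that is often raised in tumours, has 1 probe set, 219257_s_at. It read 227 and 144 after LPA and 163 and 154 in untreated cells. LPA replicate 1 was the highest of the 4 arrays and LPA replicate 2 the lowest, so the LPA arrays enclosed the untreated ones. The log2 difference was 0.19 ± 0.39 (interval -0.70 to 1.08), and it was 0.52 without LPA replicate 2 and -0.14 without LPA replicate 1.

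SGPL1, the lyase whose products are a fatty aldehyde and phosphoethanolamine, has 3 probe sets. The probe set 212322_at read 678 and 748 after LPA and 766 and 767 in untreated cells. Both LPA values were the lower, with a log2 difference of -0.11 ± 0.19 (interval -0.53 to 0.32). The probe set 212321_at read 749 and 673 after LPA and 845 and 593 in untreated cells, a difference of 0.0042 ± 0.23 (interval -0.51 to 0.52) that turned to -0.039 under quantile normalization. Here the untreated arrays enclosed the LPA arrays. The third, 208381_s_at, read 54.3 and 58.1 after LPA and 12.8 and 48.6 in untreated cells. The groups did not overlap, but untreated replicate 1 alone set the difference of 1.12 ± 0.91, which was 0.20 without it and 2.05 without untreated replicate 2. The mean of the 3 probe sets, 0.34, carried that one array's value. No tissue-restricted probe set had a mean as high as that of 212322_at or 212321_at, although 1 of them, for TNNI3, read 767 on LPA replicate 2.

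SGPP1, the phosphatase of the endoplasmic reticulum that acts on S1P, has 2 probe sets. The probe set 223391_at read 1806 and 2333 after LPA and 1746 and 2164 in untreated cells. Replicate 2 was the brighter in each group, and LPA was the brighter within each replicate number by 0.05 and 0.11 log2 units. The difference was 0.08 ± 0.19 (interval -0.36 to 0.51). The probe set 221268_s_at read 371 and 315 after LPA and 300.3 and 379.8 in untreated cells, a difference of 0.02 ± 0.27 (interval -0.59 to 0.62) that turned to -0.044 under quantile normalization. In both cases the untreated arrays differed from each other by more than the groups did.

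The other genes of sphingolipid metabolism and of S1P transport were read at the brightest probe set of each, since different probe sets of a gene often disagreed. Of 45 genes, 31 had a positive and 14 a negative difference (28 and 17 under cyclic loess, 33 and 12 with median centring), with a median of 0.07 against -0.0073 over the brightest probe sets of all 19775 genes. Of those 19775, 9708 had a positive difference and 10067 a negative one. In limma's test 0 of 45 passed (background 0%), and 3 had an unadjusted p under 0.05 (background 3.14%). The LPA arrays were both brighter than either untreated array for 6 of 45 (background 14.2%) and both dimmer for 4 (background 15.5%).

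**Figure D3:**
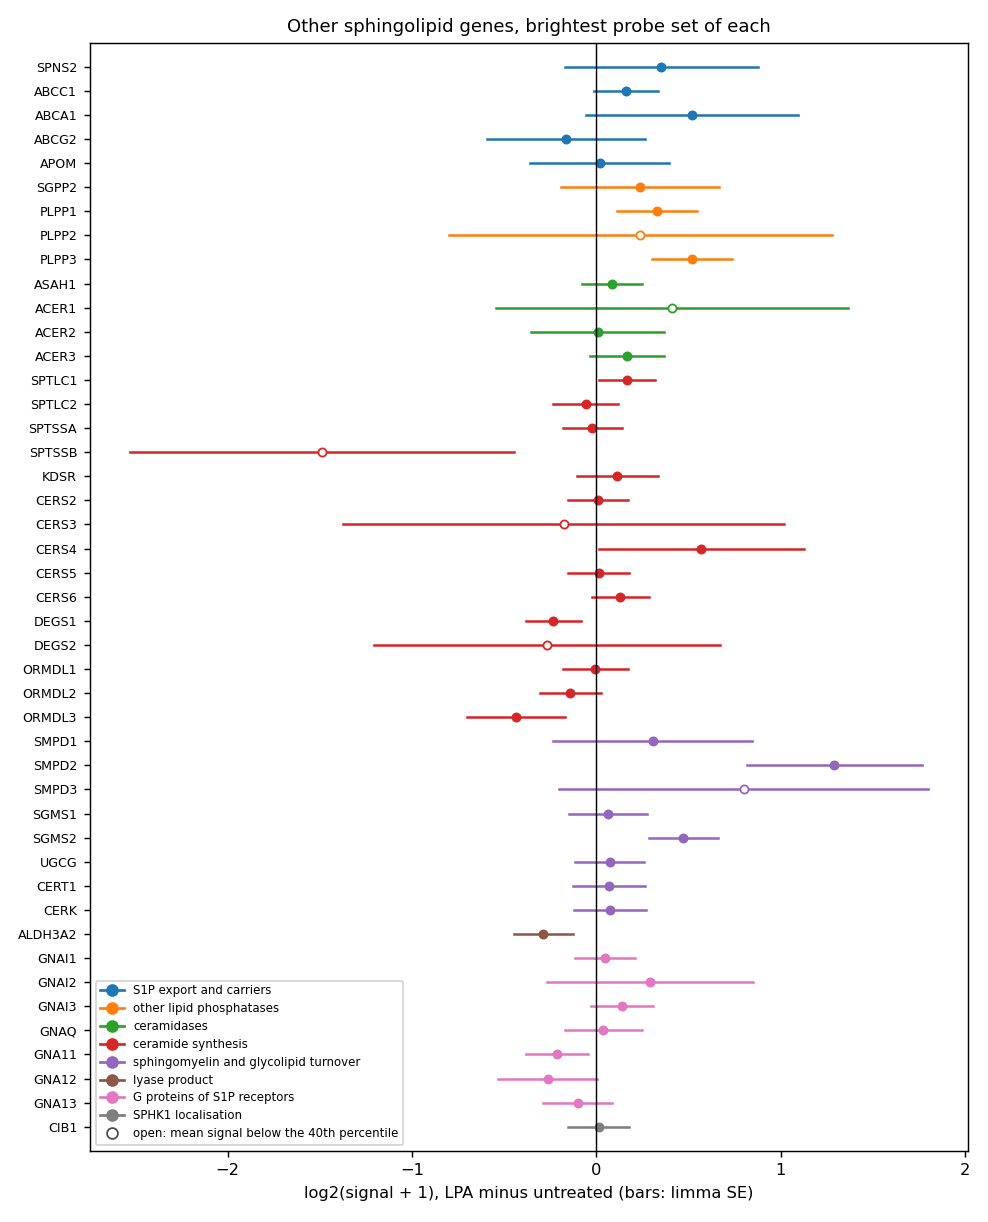
Log2 difference, LPA minus untreated, of 45 other sphingolipid genes at the brightest probe set of each (points, bars limma's SE), coloured by role; open points have a mean signal below the 40th percentile. All 4 lipid phosphatases, all 8 genes of sphingomyelin and glycolipid turnover and all 4 ceramidases lie right of 0 (3 of the 4 ceramidases under quantile normalization and cyclic loess), ceramide synthesis lies on both sides, and none passed the test.

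The 8 genes of sphingomyelin and glycolipid turnover release ceramide, consume it or carry it between membranes. All 8 had a positive difference, as they did with cyclic loess, median centring or quantile normalization, and 0 passed. The groups overlapped for 6 of the 8. Some of these, named here after their values were seen, differed in sign between replicate numbers. On number 1 the LPA array was the dimmer for SGMS1 (-0.050), UGCG (-0.089), CERT1 (-0.092) and CERK (-0.056). On number 2 it was the dimmer for SMPD1 (-0.10). SMPD2, a neutral sphingomyelinase that releases ceramide from sphingomyelin, read 152 and 232 after LPA and 65.2 and 89.0 in untreated cells. The log2 difference was 1.29 ± 0.48, with a limma unadjusted p of 0.0245 and an adjusted p of 0.9998, from 1 probe set. SGMS2, a sphingomyelin synthase that runs the reaction the other way, read 1062 and 976 after LPA and 684 and 786 in untreated cells. Its difference was 0.47 ± 0.19 (limma unadjusted p = 0.0325, adjusted p = 0.9998), but its other probe sets gave -1.07 and -0.09, and the mean of all 3 gave -0.23.

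The lipid phosphatases other than SGPP1 had positive differences for all 4 genes, with 0 past the threshold. PLPP2, named here after its values were seen, had a mean below the 40th percentile, with overlapping groups. It read 18.6 and 4.86 after LPA and 6.42 and 10.1 in untreated cells (0.24 ± 1.04). SGPP2, the second intracellular S1P phosphatase, named here after its values were seen, differed by 0.24 ± 0.43 at its brightest probe set, with overlapping groups. Another of its probe sets read 96.7 and 73.6 after LPA and 14.2 and 5.09 in untreated cells (3.15 ± 0.94; limma unadjusted p = 0.00879, adjusted p = 0.9998), with a mean below the 40th percentile, and the third gave -0.32. PLPP3, a membrane phosphatase that acts on S1P and LPA outside the cell, read 920 and 845 after LPA and 721 and 523 in untreated cells, a difference of 0.52 ± 0.22 (limma unadjusted p = 0.0414, adjusted p = 0.9998). It was 0.29 without untreated replicate 2, and the other probe sets of the gene gave -0.02 and 0.81. PLPP1, a relative of the same activity, differed by 0.33 ± 0.22, with 1341 and 1574 after LPA overlapping 950 and 1404 in untreated cells, and its other probe set by -0.16. Without untreated replicate 1 the difference was 0.049, and without untreated replicate 2 it was 0.61.

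The single gene chosen downstream of the lyase, ALDH3A2, oxidises the fatty aldehyde that SGPL1 releases. It read 1976 and 1996 after LPA and 2258 and 2598 in untreated cells, a difference of -0.29 ± 0.16 (limma unadjusted p = 0.107, adjusted p = 0.9998). One other probe set gave -0.31 and another 0.0011, so the lower signal was not shared by all 3.

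Ceramide synthesis had 6 positive and 9 negative differences among 15 genes (8 and 7 with median centring), with 0 past the threshold. ORMDL3, an inhibitor of serine palmitoyltransferase, read 421 and 293 after LPA and 438 and 514 in untreated cells (-0.43 ± 0.27). DEGS1, the desaturase that completes ceramide, read 5744 and 5817 after LPA and 6721 and 6862 in untreated cells (-0.23 ± 0.15), and its second probe set was lower on both LPA arrays too (-0.35). The ceramidases, which free sphingosine, had positive differences for 4 of 4 genes (3 of 4 under quantile normalization, where ACER2 turned), of which ACER3 (0.17 ± 0.20) and ASAH1 (0.09 ± 0.16) had the smallest unadjusted p. The LPA and untreated arrays overlapped for both at these brightest probe sets. Another ACER3 probe set was higher on both LPA arrays (0.58 ± 0.32), while the rest overlapped. Other ASAH1 probe sets separated in opposite directions. One was higher on both LPA arrays (0.28 ± 0.19) and another lower on both (-0.24 ± 0.23). A dim ASAH1 probe set was higher on both (1.52 ± 1.04), and the remaining one overlapped (0.15 ± 0.17).

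Of the G protein subunits that S1P receptors engage, 4 of 7 had a positive and 3 a negative difference, with 0 past the threshold. GNA11, a Gq class subunit, read 1296 and 1146 after LPA and 1438 and 1392 in untreated cells (-0.21 ± 0.17), and all 6 of its probe sets gave negative differences, from -0.38 to -0.21. These probe sets report the same RNA on the same arrays and are not independent. GNA12 differed by -0.26 ± 0.27, with 1626 and 1086 after LPA and 2015 and 1263 in untreated cells. CIB1, which brings SPHK1 to the membrane, differed by 0.01 ± 0.16, and by -0.0015 under cyclic loess. Among S1P exporters and carriers, 4 of 5 differences were positive (3 of 5 under quantile normalization), and the ABC transporters ABCC1 (0.16 ± 0.17) and ABCA1 (0.52 ± 0.58) had overlapping groups.

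The LPA receptors and autotaxin (ENPP2, the secreted enzyme that makes LPA) had 0 of 12 probe sets past the threshold and a median difference of 0.02. LPAR1 at its brightest probe set read 211 and 252 after LPA and 205 and 259 in untreated cells, and differed by 0.0010 ± 0.32 (-0.068 under quantile normalization). The other LPAR1 probe sets, neither of them dim, separated in opposite directions. One read 208 and 213 after LPA and 237 and 248 in untreated cells (-0.20 ± 0.30). The other read 162 and 147 after LPA and 85.0 and 123 in untreated cells (0.59 ± 0.45). LPAR2 read 51.2 and 84.7 after LPA and 77.7 and 83.7 in untreated cells (-0.29 ± 0.61), while its other probe set gave 1.82 with 1 untreated value of 10.3. ENPP2 read 188 and 247 after LPA and 170 and 228 in untreated cells (0.13 ± 0.35). The largest difference of the list came from a dim probe set of LPAR6, a gene named after its values were seen: it read 23.4 and 24.5 after LPA and 4.60 and 2.55 in untreated cells, all below 47.1. The other LPAR6 probe set, dim as well, gave -0.40 with overlapping groups. The difference between the 2 families was not tested.

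**Figure D4:**
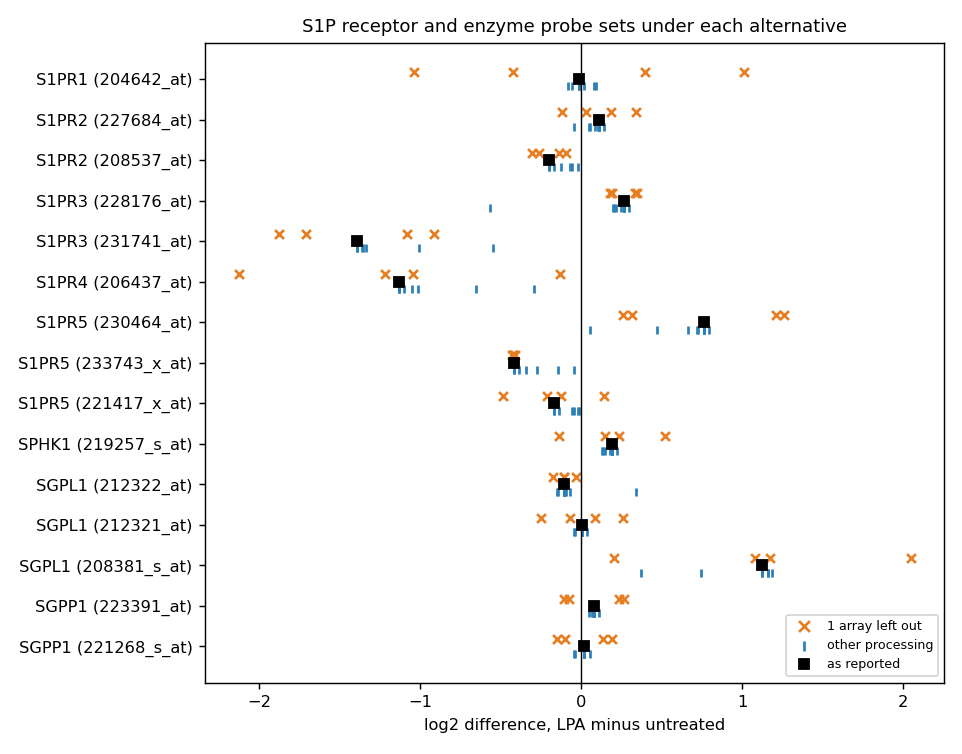
Log2 difference of each S1P probe set as reported (black squares), under the other ways of processing (blue bars) and with 1 array left out (orange crosses). When single arrays are left out, S1PR1 spreads from -1.04 to 1.01, whereas the brighter SGPL1 and SGPP1 probe sets stay between -0.25 and 0.26. The mean of a gene's probe sets is drawn as a blue bar at its brightest probe set, which for SGPL1 lies at 0.34.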

How the data were processed

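The authors deposited 1 linear intensity for each probe set on each array. The submitters' processing notes name MAS5 as the tool, without a version or background settings. Trimmed of 2% of probe sets at either end, every array averaged 500.1, so each had been scaled to a common level before deposit, and nothing further was normalized. The labels' protocols cite a manual for whole-transcript labelling, so which RNA was labelled is not certain. Of 54675 probe sets, the array annotation gave 1 symbol to 41097, several to 1801 and none to 11777; 41043 were looked up by Entrez identifier and 0 symbols changed.

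Differences of log2(signal + 1), a scale that understates those of dim probe sets, were tested with limma 3.58.1 in R 4.3.3 (lmFit, eBayes with an intensity trend), two-sided, without a filter or a replicate term, and adjusted over all 41097 probe sets. The number of arrays limits precision: the median SE was 0.593 over all probe sets. The brightest probe set of a gene is that with the highest mean log2 signal. The text names every S1P gene at every probe set, the 2 genes of smallest unadjusted p in each role of the wider list, and LPAR1, LPAR2 and ENPP2. The genes and lists were chosen with earlier results of these data known. Some genes of the chosen lists, among them MFSD2B, ASAH2, SPTLC3, CERS1, SMPD4 and LPAR5, were not analysed here. Levels were not compared between probe sets, except to set dim signals against tissue-restricted genes.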

Additional observations from a re-analysis of the deposited data

How the results depend on the processing

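Under 14 alternatives 0 S1P probe sets passed the threshold, with a lowest limma adjusted p of 0.862 and a lowest unadjusted p of 0.0546, and 0 genes of the wider list or of the LPA list passed either. Of 15 S1P probe sets, 6 kept their direction under each alternative that gave them a value and 9 did not. Those 6 were S1PR5 230464_at (14 alternatives) and 5 probe sets with means below the 40th percentile (11 or 12 alternatives). The mean of a gene's probe sets was counted at the gene's brightest probe set. For S1PR3 228176_at and SGPL1 212322_at, that gene mean alone turned the sign. The 2 groups share replicate numbers whose meaning is not stated. Same-numbered arrays deviated together (r = 0.19 over 24658 probe sets, which are not independent), and with the replicate number as a block 113 of 41097 probe sets passed in place of 0, none of them an S1P gene. The median over the S1P probe sets was -0.039 under quantile normalization, -0.021 under cyclic loess, 0.037 with median centring, 0.093 with the filter at the 40th percentile (8 probe sets), 0.15 at the brightest filtered probe sets (6 genes) and 0.017 over gene means, and -0.099 to 0.082 with 1 array left out. In the wider list outside the naming rule, APOM, ACER2, CERS5 and ORMDL1 changed sign under quantile normalization and cyclic loess. SPTSSA and ORMDL1 did so with median centring. Among the genes of the naming rule, differences that changed sign under quantile normalization were those of S1PR1 (0.078), SGPL1 212321_at (-0.039), SGPP1 221268_s_at (-0.044) and LPAR1 (-0.068). Under cyclic loess they were those of S1PR1 (0.089), SGPL1 212321_at (-0.044), SGPP1 221268_s_at (-0.040), LPAR1 (-0.058) and CIB1 (-0.0015), and with median centring that of S1PR1 (0.018). With the mean of a gene's probe sets, in which each has equal weight, they were S1PR2 (-0.046), S1PR3 (-0.57), SGPL1 (0.34), ABCC1 (-0.059), SGMS2 (-0.23) and LPAR2 (0.77). Leaving out 1 array turned the sign for S1PR1 (-1.04 to 1.01), S1PR2 227684_at (-0.12 to 0.34), S1PR5 221417_x_at (-0.49 to 0.14), SPHK1 (-0.14 to 0.52), SGPL1 212321_at (-0.25 to 0.26), SGPP1 223391_at (-0.11 to 0.26) and SGPP1 221268_s_at (-0.15 to 0.19). The alternatives for the wider and LPA lists were chosen after seeing the data. There, among the genes of the naming rule, leaving out 1 array turned the sign for ABCA1 (-0.047 to 1.09), ACER3 (-0.079 to 0.41), ASAH1 (-0.035 to 0.21), CIB1 (-0.10 to 0.13), ENPP2 (-0.080 to 0.34), GNA12 (-0.60 to 0.073), LPAR1 (-0.17 to 0.17) and LPAR2 (-0.65 to 0.069). It moved others by over 1.5 times without turning them: PLPP1 (0.049 to 0.61), PLPP3 (0.29 to 0.75), ABCC1 (0.0042 to 0.32), ORMDL3 (-0.69 to -0.17), ALDH3A2 (-0.39 to -0.19) and GNA11 (-0.30 to -0.13). The cause of these changes was not tested.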

Other observations

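CERS6 and SPTLC2, genes of ceramide synthesis outside the naming rule, each had probe sets that went the same way. Their values, and those of SPTLC1, whose probe sets did not, were chosen after they were seen. Probe sets of the same gene report the same RNA on the same arrays and are not independent. CERS6, a ceramide synthase, read 2694 and 2799 after LPA and 2408 and 2611 in untreated cells at its brightest probe set (log2 difference 0.13 ± 0.15, limma unadjusted p = 0.413, adjusted p = 0.9998), and its 3 probe sets above the 40th percentile all gave positive differences, up to 0.29. The remaining probe set, dim and with overlapping groups, gave 1.02, where untreated replicate 2 read 5.12. SPTLC2, a subunit of serine palmitoyltransferase, the first enzyme of sphingolipid synthesis, gave negative differences at all 5 of its probe sets, from -0.70 to -0.05, with overlapping groups at the brightest (1135 and 1271 after LPA, 1161 and 1346 in untreated cells). Its partner SPTLC1 was higher on both LPA arrays at its brightest probe set (6778 and 7185 against 6092 and 6337 in untreated cells, 0.17 ± 0.15), while its other probe sets gave 0.30 and -0.39.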
